A study of Mus musculus with 3 samples.

Results

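The genes encoding the proteasome were read across 3 arrays of whole mouse embryos that lack some or all of the small Maf proteins. Members were the genes whose symbol, reached through the RefSeq accession of the array probe, starts with Psma, Psmb, Psmc, Psmd or Psme followed by a number. Of 52 such genes in the annotation, 43 had a probe with 1 gene symbol, and all of those 43 were well above background on each array, among 12429 genes of which the same can be said. The other 9, namely Psma8, Psme2, Psme2b and 6 pseudogenes, had no such probe here and were not analysed. Of the 43 members, 38 encode subunits of the proteasome or of its activators, 3 (Psmd5, Psmd9 and Psmd10) encode assembly chaperones that carry a subunit name, and 2 (Psmc3ip and Psme3ip1) fit the rule by symbol alone.

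Each array was hybridised with total RNA of pooled embryos, 3 per pool, from a mixed background. The triple null group was MafF-/-:MafG-/-:MafK-/- at E10.5, and the MafG-intact groups were MafF-/-:MafG+/+:MafK-/-, 1 taken at E10.5 and 1 at E9.5, so every pool lacks MafF and MafK and the genotypes differ in MafG. Each group was 1 array: there is no replicate error, nothing below was tested, and "higher" and "lower" describe these 3 arrays. Levels are log2 intensities relative to the 75th percentile of the array, so a level of 0 is that percentile. A level may be followed across arrays but not set against the level of another gene, since probes differ in brightness. In bulk RNA of whole embryos, fewer cells of a type and less RNA per cell cannot be told apart.

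The proteasome is the protease that degrades proteins tagged with ubiquitin. Its barrel-shaped core has outer rings of alpha subunits, which gate the entrance, and inner rings of beta subunits, of which Psmb5, Psmb6 and Psmb7 carry the active sites. A regulatory particle caps the barrel: its base holds the ATPases Psmc1 to Psmc6, which unfold the substrate and thread it inward, and its lid removes ubiquitin through Psmd14. Blood cells and cells exposed to interferon replace the catalytic subunits with Psmb8, Psmb9 and Psmb10, which form the immunoproteasome. The CNC factor NRF1 (gene Nfe2l1) raises transcription of proteasome genes when proteasome activity falls, and CNC factors bind DNA as heterodimers with small Maf proteins, which is why these genes are of interest in embryos without small Maf proteins.

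The targeted gene was read before the members. Its signal, Mafg, did not clear background in the triple null pool. Set against the lowest signal among probes that did, the MafG-intact pools held at least 171-fold (E10.5) and 250-fold (E9.5) more. Across each array 69.1% to 70.4% of probes were well above background. The pools differed in sex: Xist was detected in the MafG-intact E10.5 pool alone, and Ddx3y, Eif2s3y, Kdm5d and Uty in the other pools and not in that one. Defining markers of neurons (7 of 7 measured), heart (5 of 5), liver (3 of 3) and limb (3 of 3) were above background on each array, as were 3 of 4 listed somite markers, Myf5 being below it throughout.

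Proteasome genes lay close together on the 3 arrays. Between the triple null and the MafG-intact E10.5 array, 40 of 43 members differed by less than 25% of the lower level (0.32 on the log2 scale). The 3 that did not, Psmb9, Psmd13 and Psme3, make up 6.98% of members, beside 32.4% of the 12529 genes above background on both arrays. Differences of 1.5-fold or more were taken as the main line. Psmb9 was the 1 member past it, beside 13.8% of genes, and the 1 member past 2-fold, beside 5.45%. The median log2 difference was 0.09 over the members and 0.06 over all genes, and 30 of 43 members (69.8%) lay above 0, beside 58.4% of all genes. The number above 0 was 23 of 43 with quantile normalization, beside 57.6% of all genes. It was 20 after centring each difference on genes of like brightness, which puts the median of all genes at 0. Centring turned the sign of the members' median (-0.0060), so no direction is given for the members as a whole in this comparison.

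Many members are bright, and bright genes vary less between arrays. The 32 members at a mean level of 2 or more were therefore set beside the genes at such levels. None of these 32 differed by 25% or more between the triple null and the MafG-intact E10.5 array, beside 17.4% of 2490 genes; the ATPase gene Psmc5, at 1.23-fold, came nearest. The count was also 0 of 32 for MafG-intact E10.5 against E9.5, beside 16.1% of 2484 genes, with Psmc5 again nearest at 1.24-fold. It was 0 of 32 for triple null E10.5 against MafG-intact E9.5, beside 2.82% of 2518 genes. Of the same 32 members, 21 lay above 0 in the first comparison (65.6%), close to the 70.4% of genes at such levels.

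**Figure D1:**
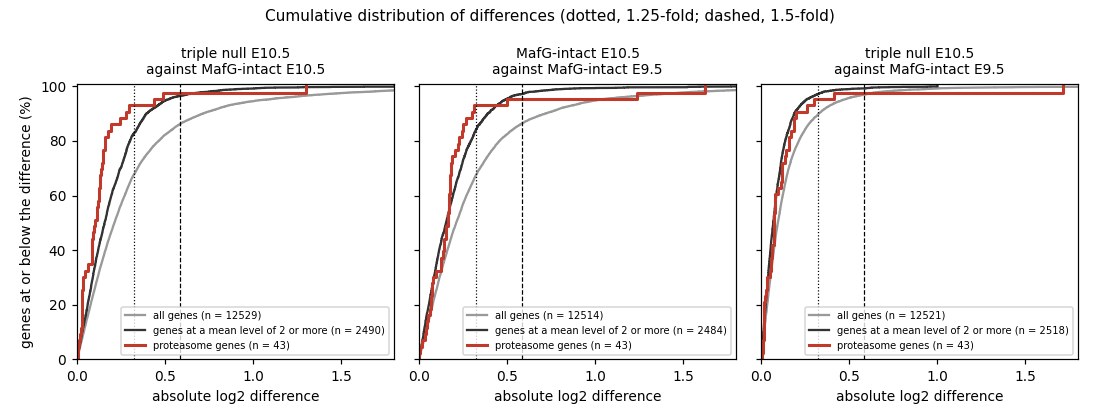
Share of genes (vertical axis, %) whose absolute log2 difference (horizontal axis) is at or below a given size, in each of the 3 comparisons, for all genes above background on both arrays, for genes at a mean level of 2 or more, and for the 43 proteasome genes. The proteasome curve reaches 93.0% at the dotted line (25% apart) in the left and middle panels and 95.3% in the right panel, and its last steps are Psmb9, Psmb8 or both.

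Over the day of development, MafG-intact E10.5 against E9.5, 36 of 43 members were lower at E10.5 (83.7%), beside 57.2% of all genes. Of the 32 at a mean level of 2 or more, 27 were lower (84.4%), beside 66.8% of genes at such levels. The differences were small: the median was -0.14 over the members and -0.05 over all genes, and it ranged from -0.18 to -0.0495 under the alternatives run, always below 0. The 7 members above 0 became 15 with quantile normalization, which takes the share of all genes above 0 from 42.8% to 43.6%. They became 17 after centring on genes of like brightness, which puts the median of all genes at 0. In this pair 3 members differed by 25% or more (Psmb8, Psmb9 and Psme3), beside 32.7% of genes. The 2 immunoproteasome genes among them, both higher at E10.5, were past 1.5-fold, beside 13.6% of genes. Psmb9 was also past 2-fold, beside 5.19%; for Psmb8 this was not settled, as 1 of its probes was below background at E9.5. Between the triple null E10.5 and the MafG-intact E9.5 array the median was -0.03 over the members and 0.0050 over all genes, with 27 of 43 members (62.8%) below 0, beside 48.5% of genes. The 16 members above 0 became 9 when scaled on spike-in probes, a scaling that takes the share of all genes above 0 from 51.5% to 36.4%. Of the 32 at a mean level of 2 or more, 9 were above 0 (28.1%), beside 57.9% of 2518 genes at such levels. There 2 members differed by 25% or more (Psmb8 and Psmd13), beside 10.3% of genes, and Psmb8 alone was past 1.5-fold, beside 3.03%, and past 2-fold, beside 0.783%, as the mean of 2 probes. That call rests on the probe below background at E9.5, since the other probe stood at 0.28. The 3 comparisons share arrays pairwise, so a member that stands low on the MafG-intact E10.5 array gives a positive difference in the first and a negative one in the second. That array held the lowest level of 27 of the 43 members, beside 50.2% of 12429 genes, and the E9.5 array held the highest level of 26, beside 31.2%. These shares are over genes of every level and are not matched to the brightness of the members. The summed intensity of 5 heart markers (114, 77.3 and 89.2 on the triple null, MafG-intact E10.5 and E9.5 arrays) and of 3 somite markers (11.5, 7.84 and 13.3) was lowest on the MafG-intact E10.5 array. That of 4 yolk sac endoderm markers (0.90, 0.87 and 2.34) was highest on the E9.5 array, and Apoa4 among them was detected there alone. The part of these tissues in the members' order was not tested.

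**Figure D2:**
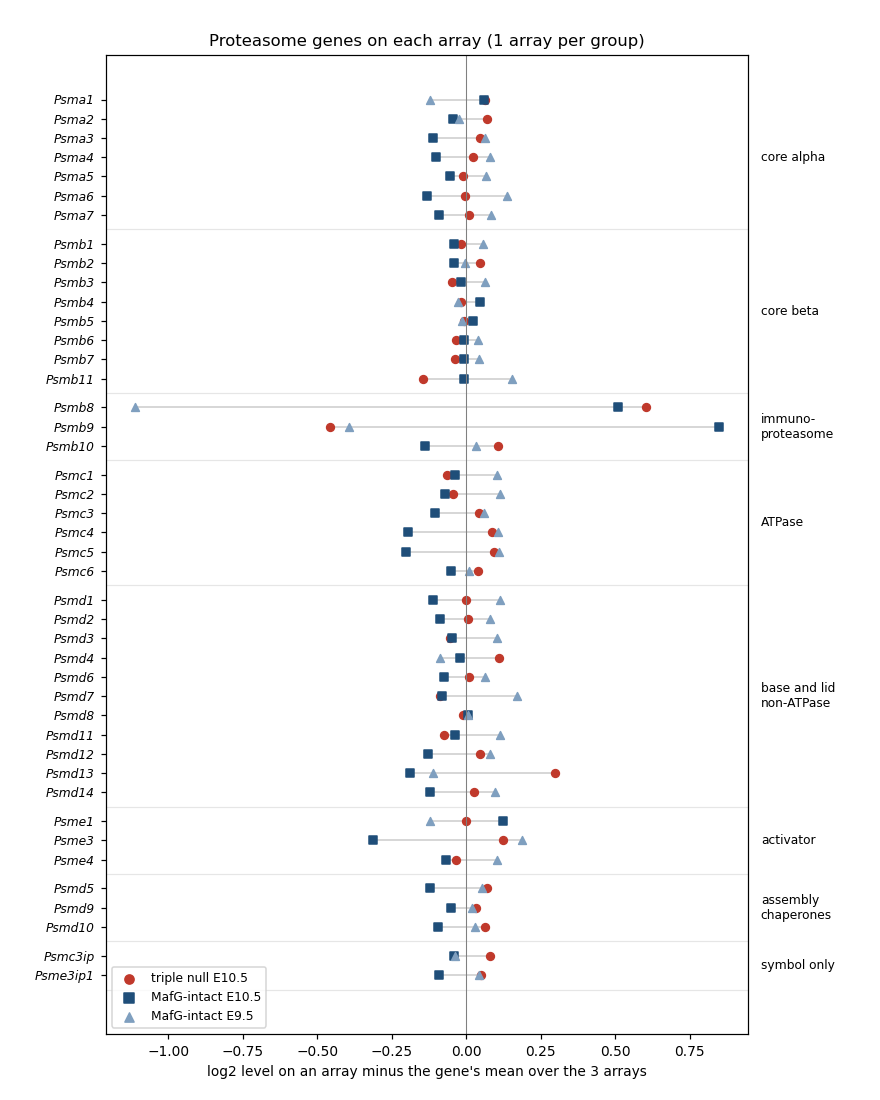
Level of each proteasome gene on each array, as log2 level minus the mean of that gene over the 3 arrays (horizontal axis), by class (right margin); each symbol is 1 array of 1 pool. The points of 41 genes lie within 0.50 of each other, Psmd13 stands to the right in the triple null and Psme3 to the left in MafG-intact E10.5, and Psmb8 and Psmb9 spread over more than the 1.5-fold line.

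What the error of such small differences may be was read from the arrays in several ways. Among probes printed 10 times, at a level of 2 or more, the median SD over the spots of 1 array was 0.051 on the triple null, 0.048 on the MafG-intact E10.5 and 0.062 on the E9.5 array. The largest of these corresponds to a spread of 0.087 for a difference of 2 spots. Feature Extraction's own error model gave the difference of a member with 1 probe a standard error of 0.204 to 0.256 on the log2 scale in the first comparison. It was 0.204 for each such member at a level of 2 or more, so it is not a spread measured on that member's spots. Neither error covers the embryos. For the 13 members with several probes, the gap between the highest and the lowest probe had a median of 0.12 in the first comparison, and 6 of them (Psmb3, Psmb8, Psmd2, Psmd7, Psme3ip1 and Psme4) had probes on opposite sides of 0.

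The promoters were searched for TGACNNNGC, the core of the element bound by heterodimers of small Maf and CNC proteins, on both strands in windows from 250 bases before to 50 bases after each RefSeq start (GRCm38.p6). Its first letters also occur in AP-1 and CREB sites, which overlap with it. Windows were held for 37 of the 43 members, and 6 of 37 (16.2%) had a match, beside 14% of 27025 genes and, counted by window, 12.4% of 32851 windows. CCAAT, the core of the NF-Y site, was found for 16 of 37 members (43.2%), beside 41.1% of genes. The stretches before the start that hold the TGACNNNGC match are shown because they are the members whose promoters carry these letters, with the match in capitals, written along the gene's strand; Psme4, whose match spans the start, is named only.
Psmb5 (chr14:54618008-54618068, minus strand): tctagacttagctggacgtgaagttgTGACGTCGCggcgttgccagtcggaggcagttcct
Psmb6 (chr11:70525322-70525356, plus strand): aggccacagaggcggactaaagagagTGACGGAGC
Psmc6 (chr14:45329574-45329631, plus strand): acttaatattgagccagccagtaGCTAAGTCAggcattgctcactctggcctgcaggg
Psmd9 (chr5:123228133-123228189, plus strand): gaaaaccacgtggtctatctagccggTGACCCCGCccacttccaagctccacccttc
Psmd12 (chr11:107479278-107479315, plus strand): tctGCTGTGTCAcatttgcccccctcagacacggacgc
The match lies on the gene's strand in Psmb5, Psmb6 and Psmd9 and on the opposite strand in Psmc6 and Psmd12. The 6 members with a match had log2 differences from -0.03 (Psmb5) to 0.17 (Psmd12) in the triple null against MafG-intact E10.5, with a median of 0.06 and none 25% or more apart. The 31 without a match had a median of 0.11, and 3 of them were 25% or more apart. A match is a description of the letters, and no match says only that these letters are not in this window.

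The core alpha genes form the gate of the barrel. Each of the 7 measured (Psma1 to Psma7) lay above 0 in the triple null against MafG-intact E10.5, from 0.0040 for Psma1 to 0.16 for Psma3, with a median of 0.11 whose sign turned with quantile normalization (-0.045) and with centring on genes of like brightness (-0.014). None was 25% or more apart, beside 17.4% of genes at a mean level of 2 or more. Of the genes at such levels 70.4% lay above 0, with a median of 0.10, close to the alpha median. Psma3 had levels of 4.03 on the triple null, 3.87 on the MafG-intact E10.5 and 4.05 on the E9.5 array, so that E10.5 stood slightly below the other pair. Psma1 showed another order, with levels of 5.02, 5.02 and 4.84. It was 1.13-fold higher at E10.5 than at E9.5 among MafG-intact pools, by 1 probe and within its scanner error of 0.204. The other 6 alpha genes were lower at E10.5 there, with Psma2 nearest 0 (-0.02). The alpha median for that comparison was -0.17, beside -0.08 over genes at a mean level of 2 or more, with Psma6 lowest at -0.27. For the triple null against E9.5 the alpha median was -0.06, beside 0.02 over genes at such levels.

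The beta genes include the active sites and their scaffold. The 8 constitutive genes include Psmb11, the beta subunit of thymic epithelium. Of these 8, 6 lay below 0 in the triple null against MafG-intact E10.5, beside 41.6% of all genes. The beta median of -0.0285, beside 0.06 over all genes, stayed below 0 under each of the 9 alternatives run on classes (-0.14 to -0.015). The catalytic genes held the same level to within 1.06-fold in every comparison. Psmb5, the chymotrypsin-like subunit, had levels of 4.41 on the triple null, 4.44 on the MafG-intact E10.5 and 4.40 on the E9.5 array. Psmb6, the caspase-like subunit, had levels of 5.69, 5.72 and 5.76 in the same order. Psmb7, the trypsin-like subunit, had levels of 3.92, 3.94 and 4.0. None of these genes separated the arrays by more than its scanner error of 0.204.

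Among the scaffold genes Psmb1, Psmb2, Psmb3 and Psmb4, differences in the first comparison ran from -0.06 (Psmb4) to 0.09 (Psmb2, levels 1.94, 1.85 and 1.89). Psmb4 was the constitutive beta gene farthest above 0 over the day of development, at 0.07. The class median was -0.0488 for MafG-intact E10.5 against E9.5, and its sign turned under 2 of the 9 alternatives, up to 0.030. Psmb11 was dim on each array, with levels of -5.62, -5.48 and -5.32, and the differences of its 1 usable probe, from -0.30 to -0.14, compare with scanner errors of 0.25 to 0.26, which the lowest, in the triple null against E9.5, exceeded.

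The members past 1.5-fold in any comparison were the immunoproteasome genes Psmb9 and Psmb8. Psmb9, which takes the place of Psmb6, had levels of -5.49 on the triple null, -4.18 on the MafG-intact E10.5 and -5.42 on the E9.5 array. The MafG-intact E10.5 array thus stood alone and high. Psmb9 was 2.47-fold lower in the triple null than in the MafG-intact pool of the same stage, 2.36-fold higher at E10.5 than at E9.5 among MafG-intact pools, and 1.04-fold apart between the triple null and E9.5, with a scanner error of 0.24 in the first comparison. With normexp background correction, which adds 50 to each intensity, the first difference was -0.38 and the second 0.31, on the same sides of 0 but under 1.5-fold.

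Psmb8, which takes the place of Psmb5, was measured by 2 dim probes that did not give the same order. The probe A_51_P345366 had levels of -4.98, -5.88 and -8.14 on the triple null, MafG-intact E10.5 and E9.5 arrays, the last not well above background, which puts the triple null at least 3.70-fold and MafG-intact E10.5 at least 1.99-fold above E9.5. The probe A_51_P345367 had levels of -6.03, -5.32 and -6.30, each above background. In the triple null against MafG-intact E10.5 the probes stood at 0.89 and -0.71, on opposite sides of 0, so their mean (0.09) gives no direction. Against E9.5 the MafG-intact E10.5 array was higher by both probes, and the mean of 1.62 rests in part on a level that is only a bound; with normexp it was 0.0066.

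Psmb10, which takes the place of Psmb7, did not share this course. It was well measured, with levels of 2.65, 2.41 and 2.58, and was 1.18-fold higher in the triple null than in MafG-intact E10.5 and 1.12-fold lower at E10.5 than at E9.5, opposite in sign to Psmb9 in both. Psmb9 and Psmb8 are neighbours on chromosome 17, with the peptide transporter gene Tap1 between them, and Psmb10 lies on chromosome 8. Tap1 was detected in the MafG-intact E10.5 pool alone, but was dim there (level -6.43). Its levels of -7.42 on the triple null and -6.72 on the E9.5 array were not well above background, so no fold is given. Tap2, next to Psmb8, has a probe but was not measured.

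Markers of white cells, which carry the immunoproteasome in the adult, lay in the direction of Psmb9. Of 12 listed genes, 10 were measured: all 10 were detected in the MafG-intact E10.5 pool, 6 on the triple null and 7 on the E9.5 array. Their summed intensity, relative to the 75th percentile, was 0.819, 3.04 and 0.881 on the triple null, MafG-intact E10.5 and E9.5 arrays. The 6 measured on both E10.5 arrays were lower in the triple null by log2 differences from -3.59 (Tyrobp) to -1.22 (Fcer1g). Ptprc and Cx3cr1 were not above background on the triple null or the E9.5 array. The summed intensity of 7 neuron markers (8.76, 37.1 and 8.94) and of 10 red cell markers (346, 611 and 411) was also highest on the MafG-intact E10.5 array. The part of these cells, or of sex, in the Psmb9 difference was not tested.

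**Figure D3:**
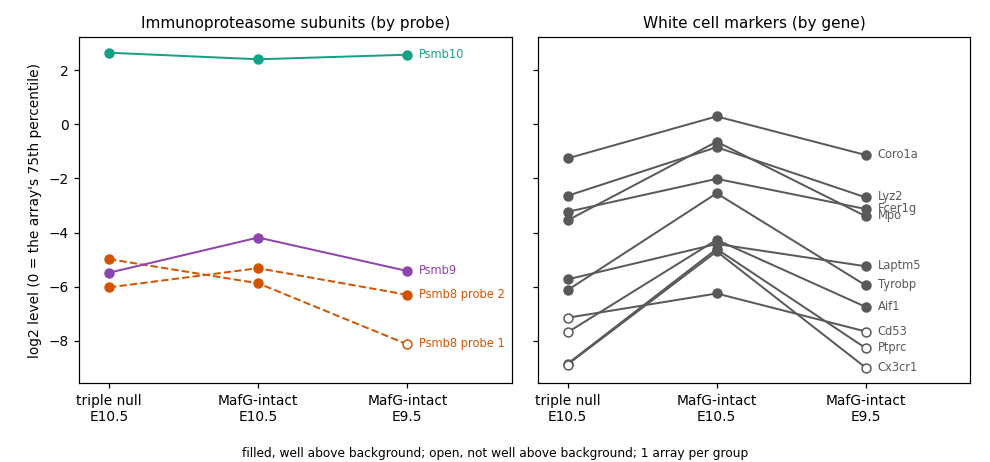
Left, log2 level of each probe of the immunoproteasome genes on the 3 arrays; right, log2 level of 10 white cell marker genes. Filled points were well above background and open points were not; each line is read along the arrays and not against another line. Psmb9 and the white cell markers peak on the MafG-intact E10.5 array, the 2 Psmb8 probes part, and Psmb10 stays between 2.41 and 2.65.

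Genes of the antigen presentation pathway that the immunoproteasome serves were read from a list of 12. The 8 measured on both E10.5 arrays each lay below 0 in the triple null, beside 41.6% of all genes below 0, with a median of -0.13. The class I gene H2-D1 was farthest from 0 (-0.46, or 1.38-fold lower), and Tapbp was nearest (-0.05). None was 1.5-fold apart, beside 13.8% of all genes. For MafG-intact E10.5 against E9.5 the median was 0.23, beside -0.05 over all genes. Of the 8 genes 7 lay above 0, beside 42.8% of all genes, and Tapbp lay below (-0.03). The peptide trimming gene Erap1 stood at 0.43 and B2m, the class I light chain, at 0.33.

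The ATPase genes Psmc1 to Psmc6 drive unfolding in the base. In the triple null against MafG-intact E10.5 they had a median of 0.12, beside 0.10 over genes at a mean level of 2 or more. The ATPase median was -0.0002 with quantile normalization. Of the 6 ATPase genes 5 lay above 0, beside 70.4% of genes at such levels. Psmc5 was highest, at 0.30, with levels of 3.03, 2.73 and 3.05 on the triple null, MafG-intact E10.5 and E9.5 arrays; its 2 probes gave 0.35 and 0.24. Psmc4 followed at 0.28, with levels of 3.92, 3.64 and 3.94 and probes at 0.29 and 0.28. In both genes the MafG-intact E10.5 array stood below the others, which lay within 1.01-fold of each other as means of 2 probes. For the triple null against E9.5 those probes lay on opposite sides of 0, at -0.15 and 0.12 for Psmc5 and at -0.08 and 0.04 for Psmc4. Psmc1 was lowest in the first comparison, at -0.03, with levels of 4.94, 4.97 and 5.11.

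Each ATPase gene was lower in MafG-intact E10.5 than in E9.5, beside 66.8% of genes at a mean level of 2 or more. The ATPase values ran from -0.31 (Psmc5) to -0.06 (Psmc6). Their median of -0.17, beside -0.08 over genes at such levels, stayed below 0 under each alternative (-0.22 to -0.0901). Against E9.5 the triple null had a median of -0.02, or 0.0053 under 1 alternative.

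The non-ATPase genes of the base and lid hold the ubiquitin receptors, the scaffold and the deubiquitinase. Over 11 genes, 7 lay above 0 in the triple null against MafG-intact E10.5 (63.6%). The share was 58.4% over all genes and 70.4% over genes at a mean level of 2 or more. The class median was 0.09, beside 0.06 and 0.10 in the same order. The base genes Psmd1, Psmd2 and Psmd4 lay between 0.09 and 0.13. Psmd4, a ubiquitin receptor, had levels of 3.78, 3.65 and 3.58, highest in the triple null. Of the 8 lid genes 4 lay above and 4 below 0: Psmd11, a scaffold gene of the lid, was lowest at -0.03, with levels of 5.27, 5.30 and 5.46, and Psmd14, the deubiquitinase, stood at 0.15 with probes at 0.11 and 0.18.

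The lid gene Psmd13 was the member highest in the triple null in this class and among the 43. It had levels of 1.74 on the triple null, 1.26 on the MafG-intact E10.5 and 1.33 on the E9.5 array, and so stood alone and high on the triple null array. It was 1.40-fold higher than in MafG-intact E10.5, above 93.4% of all genes, and 1.33-fold higher than in MafG-intact E9.5, above 96.9% of all genes. The MafG-intact arrays were 1.05-fold apart. Under the alternatives the first difference ran from 0.38 to 0.49 and the third from 0.30 to 0.41, against a scanner error of 0.204, and it rests on 1 probe. The other 7 lid genes lay between -0.03 and 0.17 in the first comparison and between -0.26 and -0.02 in the third. Psmd7 was lowest in the third, with levels of 3.32, 3.33 and 3.58 and probes at -0.23 and -0.29.

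For MafG-intact E10.5 against E9.5, 10 of the 11 base and lid genes were lower at E10.5. The share was 57.2% over all genes and 66.8% over genes at a mean level of 2 or more. The class median was -0.15, beside -0.05 and -0.08 in the same order, and the range was from -0.25 (Psmd7) to 0.07 (Psmd4).

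The activators cap the core in place of the regulatory particle, and its 3 measured genes did not lie on 1 side of 0. Psme3, the nuclear activator gamma, had levels of 1.36, 0.93 and 1.43, low on the MafG-intact E10.5 array: it was 1.35-fold higher in the triple null than in MafG-intact E10.5, and 1.41-fold lower at E10.5 than at E9.5. The latter was the largest difference among members other than Psmb8 and Psmb9 in any comparison, and ranged from -0.54 to -0.43 under the alternatives. Psme1, a subunit of the interferon-inducible activator, took the opposite course, with levels of 3.53, 3.66 and 3.41; it was 1.09-fold lower in the triple null and 1.18-fold higher at E10.5 than at E9.5. Psme4, the large single-chain activator, lay at 0.03 in the first comparison, with its probes at -0.03 and 0.10, and at -0.17 in the second. Psme1 thus had the sign of Psmb9 in both, and its difference in the first is smaller than its scanner error of 0.204.

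The assembly chaperones escort the base while it is built. Psmd5 had levels of 3.02, 2.83 and 3.01 and was 1.14-fold higher in the triple null than in MafG-intact E10.5. Psmd9 had levels of 0.75, 0.66 and 0.73 and was 1.06-fold higher. Psmd10 was 1.11-fold higher, with levels of 0.67, 0.52 and 0.64. It lies on the X chromosome, and the pools compared differed in sex. Each of these 3 differences was smaller than its scanner error, 0.204 for Psmd5 and Psmd10 and 0.144 for Psmd9. The Psmd9 difference reached -0.0012 under the alternatives. The median over all genes in this comparison was 0.06. Against E9.5 the triple null values of the 3 genes lay between 0.0149 and 0.0329. The genes that share only the symbol, Psmc3ip, a meiotic recombination factor, and Psme3ip1, lay at 0.12 and 0.14 in the first comparison.

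**Figure D4:**
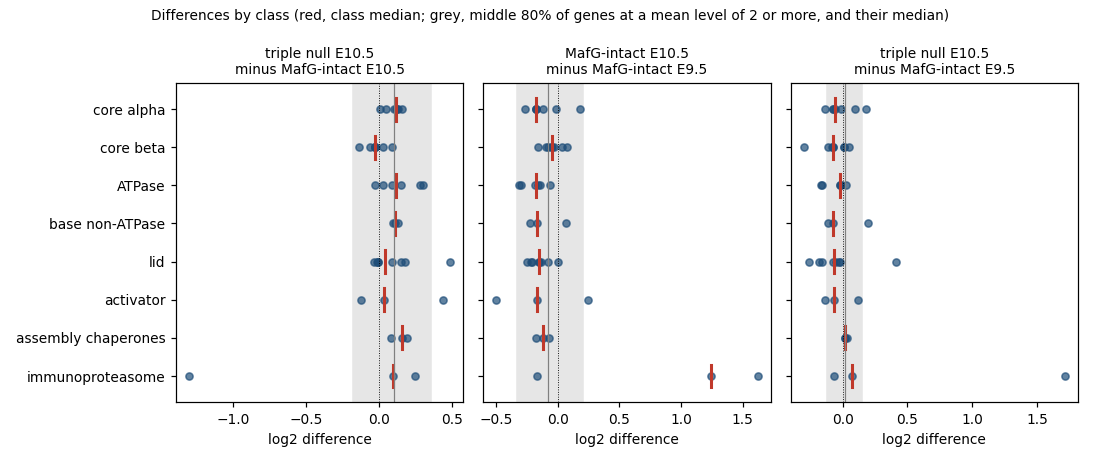
Log2 difference of each gene (points) by class in the 3 comparisons, with the class median in red; the grey band holds the middle 80% of genes at a mean level of 2 or more and the grey line is their median. In the left panel, apart from Psmb9 and the genes Psmd13 and Psme3, the points lie inside the band (-0.18 to 0.35), with the core beta median at -0.0285 and the ATPase median at 0.12.

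Outside the subunits, a list of 40 genes that assemble, feed or regulate the proteasome was read, of which 36 were above background on both E10.5 arrays. Apart from Mafg, none of those measured was 1.5-fold apart in any comparison. By that rule 13.8%, 13.6% and 3.03% of all genes were apart in the 3 comparisons in their order. Mafg, the targeted gene, had only bounds for the triple null, which lay at least 171-fold below MafG-intact E10.5 and 250-fold below E9.5. In all, 26 of 36 (72.2%) lay above 0 in the triple null against MafG-intact E10.5, with a median of 0.13. The share was 58.4% over all genes, with a median of 0.06. Among genes at a mean level of 2 or more it was 70.4%, close to that of the list, with a median of 0.10. Pomp, the chaperone of core assembly, had levels of 6.28, 6.12 and 6.22. Nfe2l1 had levels of 3.53, 3.51 and 3.65, and was 1.01-fold apart between the E10.5 arrays. Nfe2l2 had levels of 1.78, 2.07 and 1.86 and was 1.22-fold lower in the triple null, with the MafG-intact E10.5 array highest.

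Of these 36 genes, 5 were 25% or more apart in the triple null against MafG-intact E10.5, beside 32.4% of all genes; they are named here after their values were seen. The core assembly chaperone genes Psmg1 (0.41) and Psmg2 (0.35), the proteasome deubiquitinase gene Usp14 (0.37) and the ubiquitin fusion gene Rps27a (0.38) were higher, and Ngly1 (-0.46), the deglycosylase that processes NRF1, was lower. Psmg2 was also 1.31-fold higher in the triple null than in E9.5, whereas Psmg1, Usp14, Rps27a and Ngly1 were under 25% apart in that pair. Over the subgroups, beside 58.4% of all genes above 0, the deubiquitinases and ligase had a median of 0.21 with 4 of 4 above 0, the ubiquitin genes 0.20 with 5 of 6, the assembly genes 0.11 with 9 of 11, the shuttle and unfoldase genes 0.10 with 6 of 9, and the transcription factors -0.03 with 2 of 6.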

How the data were processed

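The 3 arrays were read as 1 per group. Per the file headers, the authors scanned 1-colour arrays of design 014868 (annotation build mm7) with Agilent Feature Extraction 9.5.3.1, protocol GE1-v5_95_Feb07, and deposited a background-subtracted intensity. The deposited value table holds the same intensity, rounded (largest difference 0.497%). All arrays lay on 1 slide. The log2 intensity was taken minus the 75th percentile of each array (1078 for triple null, 1420 and 1064 for MafG-intact at E10.5 and E9.5) over 43379 non-control spots. Outlier spots (59, 52 and 83) were left out, and none was saturated. Probes (22951 of 41174 with 1 gene symbol in a RefSeq table of GRCm38.p6) were kept when well above background on at least 1 array and averaged by gene; members used 57 of 58 probes. A gene entered a comparison when above background on both arrays. With 1 array a group there is no test; differences of 25%, 1.5-fold and 2-fold were counted. The steps were tested on simulated data with changes above 2-fold in genes at a level above 0. That test does not cover smaller differences or dim genes such as Psmb8 and Psmb9. The RefSeq protein comparison planned for these genes was not made, as no protein table was used here.

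Members, classes, lists and motifs were chosen with earlier results of these data known. Values on all arrays were given for catalytic and immunoproteasome genes, the highest and lowest member of each class in the first comparison, members at least 1.5-fold apart or dim, and for pathway genes Nfe2l1, Nfe2l2, Pomp and any 1.5-fold apart; a few further members were added after their values were seen. Alternatives were scaling on 8 spike-in probes or by the detected genes' median, centring in 20 bins of level, quantiles, normexp (offset 50), 2 probe filters, the brightest probe, subunits only, and the deposited intensity table. Work was done in Python 3.11.15 (pandas 2.3.3, numpy 2.4.6, matplotlib 3.10.9) and R 4.3.3 (limma 3.58.1).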

Additional observations from a re-analysis of the deposited data

How the results depend on the processing

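The members' median for triple null against MafG-intact E10.5 (0.09) was -0.0060 after centring in level bins and 0.0060 with quantile normalization, and kept its sign in 9 of 10 alternatives; the medians for MafG-intact E10.5 against E9.5 and for triple null against E9.5 kept theirs in 10 of 10 each, the former at -0.0495 after centring in level bins. The number of members at least 1.5-fold apart was 0 in each of the 3 comparisons with normexp, whose offset pulls dim genes together. For triple null against MafG-intact E10.5 it was 2 with the brightest probe and with probes above background on all arrays, where Psmb8 (-0.71) joined Psmb9, and for triple null against E9.5 it was 0 with either, since Psmb8 was then 0.28. At 25% the counts were 3, 3 and 2 for the comparisons in their order, and at 2-fold 1, 2 and 1; the latter 2 counts include Psmb8 as a mean with a probe below background at E9.5, whose other probe stood at 0.99 and 0.28. No paired analysis was possible because each group is 1 array, and no replicate could be left out. Dim signal limits Psmb8, Psmb9 and Psmb11.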
